A study of Mus musculus with 4 samples.

Results

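ADAMTS proteases are secreted enzymes of the extracellular matrix, and 8 of their genes were followed in Sca-1 cells from failing and normal mouse hearts: Adamts1, Adamts2, Adamts4, Adamts5, Adamts9, Adamts10, Adamts12 and Adamts15. Probe sets of the array that could be assigned to these genes were taken, which gave 16 of 45037 probe sets. The platform annotation used here names 15 of them. The probe set of Adamts2 (1435990_at) has no name in that annotation and was identified from the supplement of the paper, in a list of genes that the study had called changed on these same arrays. Its difference between the genotypes is therefore a description and not independent evidence. Any further Adamts2 probe set without a name would have been missed, so the result for this gene rests on a single probe set.

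Sca-1 cells were obtained by magnetic cell sorting from hearts of mice aged 6 weeks, and RNA was extracted without culture. Cyc cells came from αMHC-CyclinT1/Gαq overexpressing double-transgenic FVB mice with heart failure, and Wt cells from healthy wildtype littermates on the same FVB background. The α-MHC promoter directs both transgenes to cardiomyocytes. Mice of either sex were used, each of the 4 arrays was hybridised with RNA pooled from 2 to 3 hearts, and each genotype has replicates 1 and 2.

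Enzymes of this family are made as inactive precursors with a metalloprotease domain and a tail of thrombospondin type 1 repeats that binds them to matrix. Adamts1, Adamts4, Adamts5, Adamts9 and Adamts15 belong to the branch that cleaves large proteoglycans such as versican and aggrecan. Adamts2 removes the amino-terminal propeptide of fibrillar procollagens, which allows fibrils to form. Adamts12 cleaves the cartilage matrix protein COMP, as studied with the human enzyme, and Adamts10 is a partner of fibrillin microfibrils, with mutations in a human short stature and lens disorder. In the heart, proteoglycans of the valves, vessel walls and fibrotic matrix are known substrates of the family.

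The sequences before the transcription start are shown for Adamts2, which differed most between the genotypes, and for Adamts1, whose probe set was the brightest and whose groups overlapped. The 250 bases are those of RefSeq on GRCm38.p6, 5′ to 3′ on the strand of the gene, at chr11:50601835-50602084 (plus strand) for Adamts2 and chr16:85803114-85803363 (minus strand) for Adamts1. Capitals mark GC boxes (GGGCGG or its reverse complement CCGCCC) and the TATA sequence (TATAAA or TTTATA).
Adamts2: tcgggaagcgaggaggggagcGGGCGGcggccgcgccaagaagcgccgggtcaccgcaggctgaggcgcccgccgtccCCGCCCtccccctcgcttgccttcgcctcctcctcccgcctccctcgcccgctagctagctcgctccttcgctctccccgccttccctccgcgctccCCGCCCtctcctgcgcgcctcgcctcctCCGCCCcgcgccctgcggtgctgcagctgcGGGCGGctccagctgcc
Adamts1: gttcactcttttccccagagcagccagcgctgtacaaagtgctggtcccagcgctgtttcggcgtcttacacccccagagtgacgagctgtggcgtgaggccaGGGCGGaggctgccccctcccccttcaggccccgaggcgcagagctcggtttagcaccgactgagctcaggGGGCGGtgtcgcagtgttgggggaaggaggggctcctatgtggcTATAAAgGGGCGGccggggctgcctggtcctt
The Adamts2 window held 5 GC boxes and no TATA sequence, and the Adamts1 window held 3 GC boxes and 1 TATA sequence that began 32 bases before the start. Of 27025 such windows, 32.9% held a GC box and 13% a TATA sequence. The bases G and C made up 78% of the Adamts2 window and 65.6% of the Adamts1 window, against a median of 52% over all promoters. None of the motifs overlapped another. The windows of Adamts9 and Adamts12 held 1 and 0 GC boxes, and no window of the 4 genes held an AP-1 motif (TGACTCA or TGAGTCA), which 4.43% of all windows hold. Windows of the other 4 genes were not analysed here. These are matches of letters only. The reference also places Adamts1 and Adamts5 side by side on their chromosome, with no other protein-coding gene between them.

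The deposited intensities are linear, and some are negative where background was larger than signal. An intensity under 50 was treated as near background, and the 20680 probe sets at 50 or more on at least 2 arrays were tested. In the Cyc pools 18460 and 21444 probe sets reached 50, and in the Wt pools 19442 and 20200. Poly-A control transcripts, which are added before labelling, gave medians of 258.8 (Cyc) and 231.9 (Wt) on the arrays numbered 1 but of -0.9 (Cyc) and 0.3 (Wt) on those numbered 2. The replicate numbers thus part the arrays into 2 technical batches, which are called experiment 1 and experiment 2 below, each with 1 Cyc and 1 Wt pool. The sample labels do not say whether arrays of the same number shared an experiment, so this pairing is inferred from the controls. Gnaq, the gene of Gαq, was read at 723.6 and 492.3 in Cyc pools, against 22.7 and 4.1 in Wt pools at its probe set 1450115_at, and its other probe sets did not pass the thresholds. Ccnt1, the gene of Cyclin T1, was read at 496.9 and 926.1 in Cyc pools, against 840.0 and 1086.3 in Wt pools at 1456477_at, so its groups overlapped. The gene of Sca-1 itself was not analysed here.

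Markers of several cell types were read in all pools. All 5 fibroblast markers (Col1a1, Col3a1, Pdgfra, Dcn, Tcf21) reached 50 in every pool, with summed intensities of 25614 and 25857 in Cyc pools, against 27574 and 17771 in Wt pools. All 5 endothelial markers (Pecam1, Cdh5, Kdr, Tek, Emcn) did so too, with sums of 26743 and 29231 in Cyc pools, against 30512 and 31569 in Wt pools. The 4 airway markers (Scgb1a1, Sftpc, Scgb3a2, Foxj1) summed to 179 and 15949 in Cyc pools, against 2513 and 38 in Wt pools. The Cyc pool of replicate 2 was thus the highest, and the Wt pool of replicate 1 came next. As these are bulk samples, fewer cells of a type and less RNA per cell cannot be told apart in any result.

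All 8 ADAMTS genes had at least 1 probe set that could be tested. Of the 16 probe sets 13 passed the filter, and 12 of these reached 50 in all 4 pools. The 3 that were not tested lay far below 50 in every pool, namely 1456969_at of Adamts5 (4.3 or less), 1441309_at of Adamts10 (19.5 or less) and 1446666_at of Adamts12 (5.8 or less). Each of these genes had another probe set above 50 in every pool. Intensities of different probe sets do not rank the genes by amount of transcript.

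**Figure D1:**
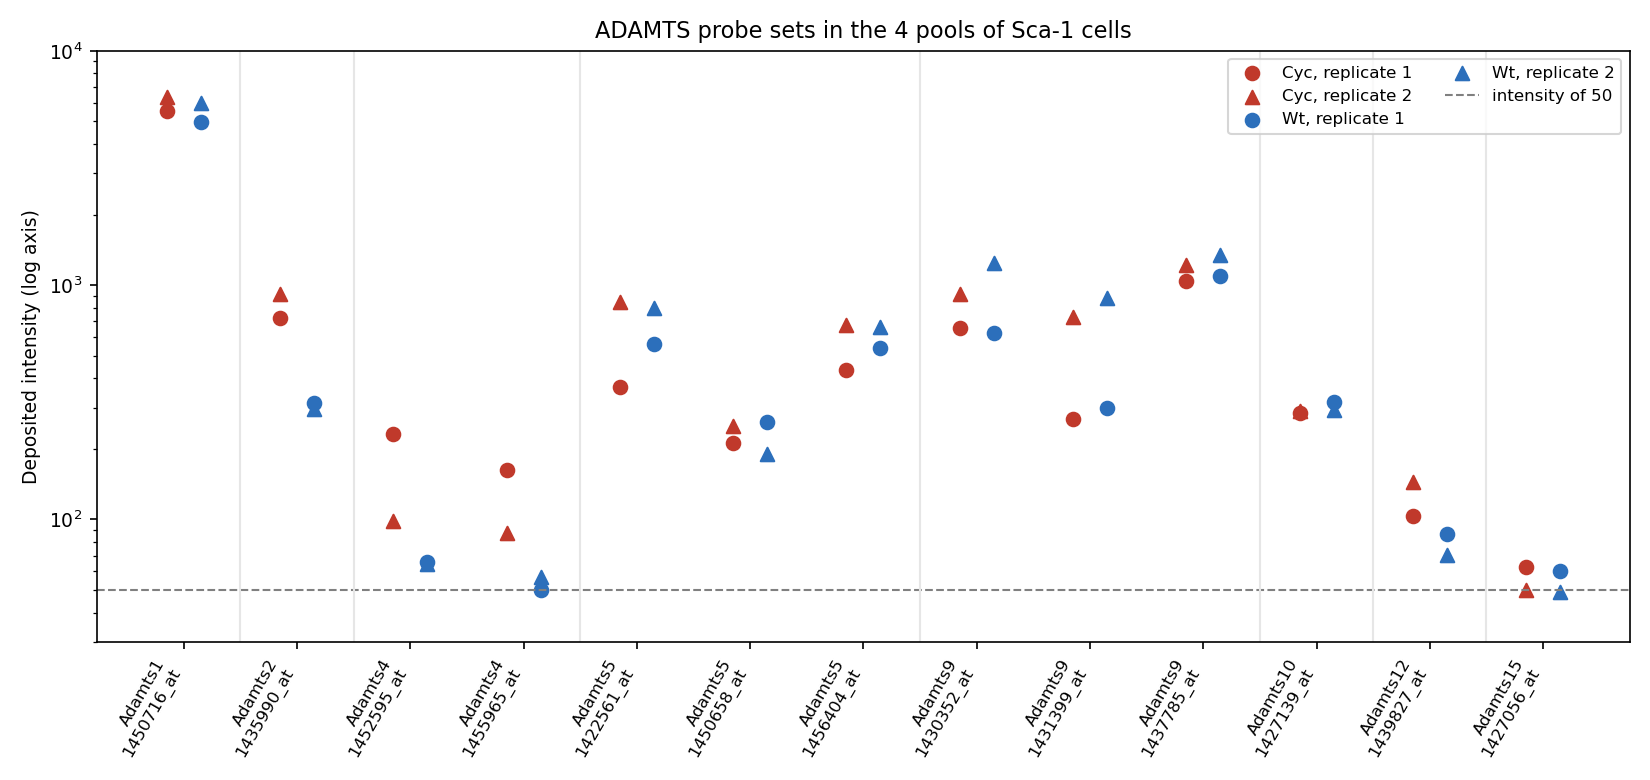
Deposited intensity (log axis) of the 13 tested ADAMTS probe sets in each pool, with Cyc pools in red left of Wt pools in blue, circles for replicate 1 and triangles for replicate 2. Red points lie above both blue ones for Adamts2, both Adamts4 probe sets and Adamts12, and Adamts15 lies at the dashed line that marks an intensity of 50.

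Values were floored at 0, 16 was added and log2 was taken before the fit in limma, and fold changes of dim genes are understated on this scale. A probe set passed the study's thresholds with a 2-fold change and an unadjusted p under 0.05. Of the 13 tested ADAMTS probe sets, 1 was higher in Cyc cells, that of Adamts2, none was lower and 12 did not pass. Over all tested probe sets, 0.735% were higher and 0.116% lower. Among the 12 that the platform annotation names, limma called 0, with 1 at an unadjusted p under 0.05 in limma (1.99% of all tested probe sets) and 0 without moderated variances (3.11%). No ADAMTS probe set passed after correction (limma, adjusted p = 1 for all 13). The median log2 fold change was 0.03 over the 13, against -0.02 over all tested probe sets. In experiments 1 and 2 the medians were 0.04 and 0.08 for the ADAMTS probe sets and -0.10 and 0.06 for all. Over the 12 without Adamts2 the median was -0.02, with -0.01 in experiment 1 and 0.05 in experiment 2. The p-values measure only the spread between these pools.

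The genotypes did not overlap in 5 of the 13 probe sets, 4 with higher and 1 with lower values in both Cyc pools, against 15.1% and 8.23% of all tested probe sets. Without Adamts2, which came from the study's list of changed genes, 3 of 12 had higher and 1 had lower values in both Cyc pools. The higher ones include both probe sets of Adamts4, which are not independent of each other. The lower one was that of Adamts10, at 289.8 in its higher Cyc pool against 292.2 in its lower Wt pool. Cyc exceeded Wt in both experiments in 6 of the 13, was below Wt in both in 3 and moved in opposite directions in 4. These patterns were seen in 26.1%, 29.1% and 44.7% of all tested probe sets. Among the 12 without Adamts2 the counts were 5, 3 and 4.

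**Figure D2:**
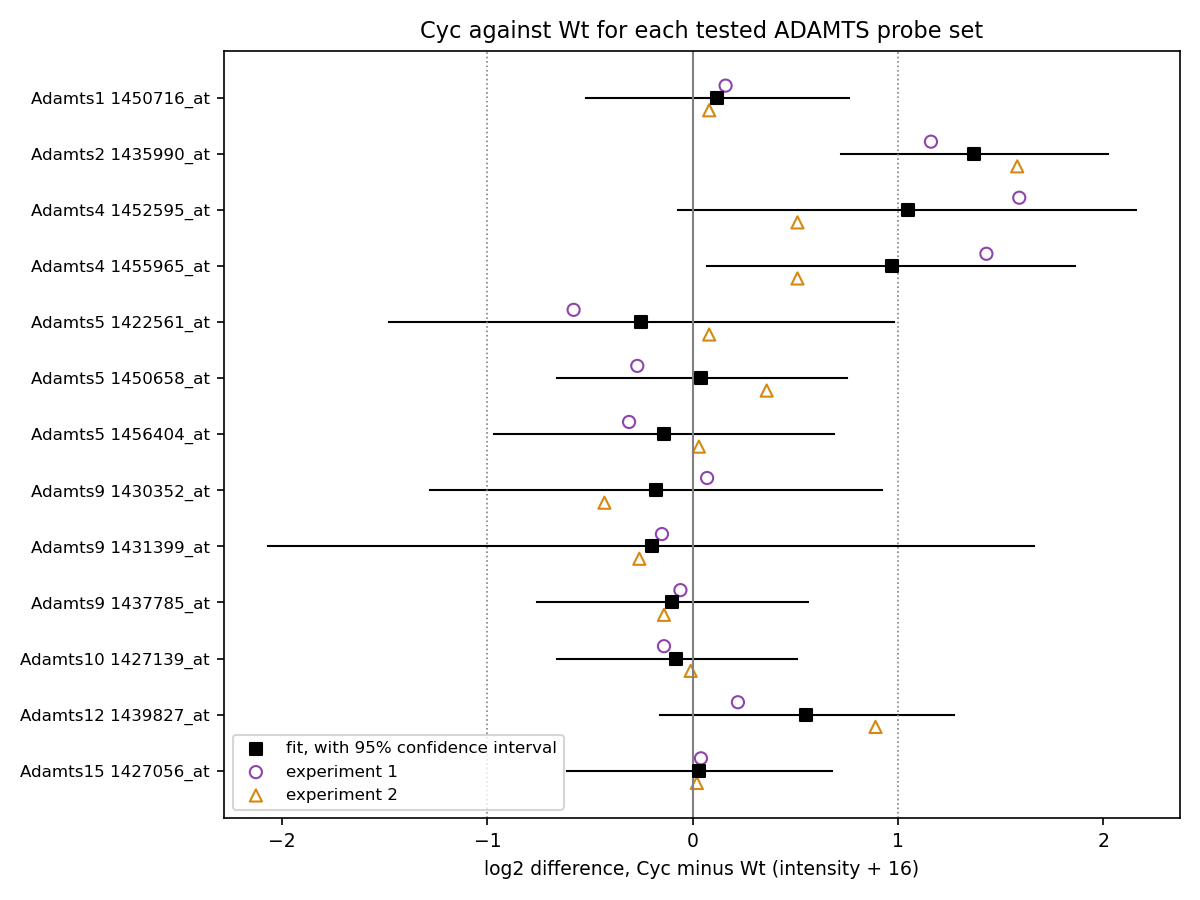
Difference between Cyc and Wt cells on the log2 scale for each tested ADAMTS probe set, with the fitted value and its 95% confidence interval (black) and the difference within experiment 1 (open circles) and experiment 2 (open triangles). The intervals of 11 of the 13 probe sets include 0, and those of Adamts2 (0.72 to 2.02) and of 1455965_at of Adamts4 (0.07 to 1.86) do not.

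Adamts2, the procollagen N-proteinase, had intensities of 722.2 and 914.5 in Cyc pools, against 313.4 and 296.2 in Wt pools. Both Cyc pools were well above both Wt pools, and neither genotype varied much between its pools. Its mean was 818 ± 136 in Cyc and 305 ± 12.2 in Wt cells (SD, n = 2 pools each). This is a log2 fold change of 1.37 (standard error 0.25, limma adjusted p = 1) or 2.59-fold, with 2.24-fold in experiment 1 and 2.98-fold in experiment 2. With the experiment as a block the fold change was the same and the adjusted p in limma was 0.453. Without the Cyc pool of replicate 2 the log2 fold change was 1.20, and without the Wt pool of replicate 1 it was 1.41. Airway genes were brightest in these pools, and each of the fits kept the other one. Some fibroblast markers were higher in Cyc cells too. At the brightest probe sets both Cyc pools were above both Wt pools for 3 of the 5 (Col1a1, Col3a1 and Tcf21), against 15.1% of all tested probe sets. Dcn and Pdgfra overlapped, and 1 marker (Col1a1) passed the thresholds. From Wt replicate 1 to replicate 2 the 5 markers changed by -0.85 (Tcf21) to -0.35 (Pdgfra) in log2, each at its brightest probe set. Adamts2 changed by -0.08. From Cyc replicate 1 to replicate 2 the markers changed by -0.10 (Col3a1) to 0.96 (Col1a1), and Adamts2 by 0.33. The median log2 fold change of the 5 markers was 0.44, with 0.11 in experiment 1 and 0.76 in experiment 2. The summed intensity given above is mostly that of Dcn and Col3a1, and it overlapped between the genotypes. The part of cell composition in the result was not tested.

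The 3 tested genes most like Adamts2 over the 4 pools were Cytl1, Col18a1 and Calhm5. Likeness was measured as the root mean square distance of the log2 values, centred on their mean, among 17924 probe sets with 1 gene symbol. Cytl1, which encodes a secreted cytokine-like protein, was at a distance of 0.10 and had intensities of 1666.9 and 1980.9 in Cyc pools, against 833.8 and 678.0 in Wt pools. Col18a1, the gene of the basement membrane collagen from which endostatin is released, was at 0.103 with 1662.7 and 1937.7 in Cyc pools, against 664.6 and 755.8 in Wt pools. Calhm5, of a family of ion channel genes, was also at 0.103 with 108.1 and 134.5 in Cyc pools, against 47.5 and 42.1 in Wt pools. With only 4 pools the measure describes these arrays and nothing more.

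Adamts4, an aggrecan- and versican-cleaving enzyme, was read by a pair of probe sets with nearly the same pattern. At 1452595_at the intensities were 230.3 and 98.1 in Cyc pools, against 65.9 and 64.3 in Wt pools. At 1455965_at they were 161.7 and 87.5 in Cyc pools, against 50 and 56.9 in Wt pools. In both, the Cyc pool of replicate 1 was by far the highest, the Cyc pool of replicate 2 came next and the Wt pools lay close together, without overlap of the genotypes.

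The log2 fold changes of Adamts4 were 1.05 (standard error 0.42) at 1452595_at and 0.97 (standard error 0.34) at 1455965_at. The first reached 2-fold but missed the p threshold (limma, unadjusted p = 0.06), and the second passed the p threshold (limma, unadjusted p = 0.0389) but missed 2-fold. Within experiment 1 the Cyc pool was 3.01-fold and 2.69-fold above Wt at these probe sets, and within experiment 2 it was 1.42-fold above Wt at both. With the experiment as a block, 1452595_at passed both thresholds, but not after correction (limma, adjusted p = 0.664). In that fit 2 of the 13 ADAMTS probe sets were higher, and 1 of the 12 without Adamts2, whose probe set came from the study's list of changed genes. None was lower. Over all tested probe sets 0.924% were higher and 0.227% lower in that fit. Without the Cyc pool of replicate 1 the values were 0.49 and 0.58, and without that of replicate 2 they were 1.60 and 1.36 and both passed the thresholds.

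Adamts1, the founding member of the family, was bright and even. Its only probe set (1450716_at) had 5549.8 and 6340.9 in Cyc pools, against 4973.8 and 5990.6 in Wt pools, and the genotypes overlapped. The log2 fold change of 0.12 had a 95% confidence interval from -0.52 to 0.76 (limma), and a 2-fold change in either direction lies outside the interval. In experiments 1 and 2 the differences were 0.16 and 0.08.

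Adamts5, the main aggrecanase of mouse cartilage, had 3 tested probe sets, and all of them were lower in Cyc cells in experiment 1 and higher in experiment 2. At 1422561_at the intensities were 368.0 and 842.6 in Cyc pools, against 557.8 and 796.5 in Wt pools. At 1456404_at they were 432.5 and 676.0 in Cyc pools, against 540.2 and 662.0 in Wt pools, and at 1450658_at 212.1 and 249.7 in Cyc pools, against 259.7 and 190.7 in Wt pools. The Cyc pool of replicate 1 was the lowest of the 4 at the first pair of probe sets, whereas at 1450658_at it was the Wt pool of replicate 2.

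The fitted log2 fold changes of Adamts5 were -0.25, -0.14 and 0.04 at 1422561_at, 1456404_at and 1450658_at, with standard errors of 0.47, 0.31 and 0.27 (limma). Within experiment 1 they were -0.58, -0.31 and -0.27, and within experiment 2 they were 0.08, 0.03 and 0.36. The genotypes overlapped at every probe set. The intervals at 1456404_at and 1450658_at ran from -0.97 to 0.69 and from -0.66 to 0.75, while that at 1422561_at was wider, from -1.48 to 0.98. The probe sets 1422561_at and 1450658_at, which the annotation assigns to the same accession, differed most in pattern, with a root mean square distance of 0.49 between their centred log2 values. That between the Adamts4 probe sets was 0.14.

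Adamts9, a versican-cleaving enzyme, gave the widest disagreement between probe sets, and it lay between the experiments rather than between the genotypes. At 1431399_at the intensities were 267.0 and 732.4 in Cyc pools, against 297.8 and 880.1 in Wt pools, so that both pools of replicate 2 were far above both pools of replicate 1. At 1430352_at they were 655.2 and 917.0 in Cyc pools, against 622.8 and 1240.8 in Wt pools. At 1437785_at they were 1041.9 and 1215.2 in Cyc pools, against 1090.1 and 1340.6 in Wt pools, a much smaller step in the same direction.

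On the log2 scale, replicate 2 exceeded replicate 1 by 1.40 in Cyc and 1.51 in Wt cells at 1431399_at, by 0.48 in Cyc and 0.98 in Wt cells at 1430352_at and by 0.22 in Cyc and 0.29 in Wt cells at 1437785_at. Over all tested probe sets the median of this difference was 0.38 in Cyc and 0.19 in Wt cells, and the 95th percentile was 1.47 in Cyc and 0.93 in Wt cells. The root mean square distance between 1431399_at and 1437785_at was 0.60, the largest within any ADAMTS gene. The part of the transcript that each probe set reads was not analysed here.

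The difference between the genotypes was small at all 3 Adamts9 probe sets, at log2 fold changes of -0.20, -0.18 and -0.10 for 1431399_at, 1430352_at and 1437785_at. At 1431399_at the standard error was 0.71 without and 0.19 with the experiment as a block (limma), and the interval from -2.07 to 1.66 without the block became one from -0.68 to 0.27. With the block, the intervals at 1430352_at and 1437785_at ran from -0.72 to 0.36 and from -0.58 to 0.37. Within the experiments the differences lay between -0.43 and 0.07 and the genotypes overlapped at every probe set.

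**Figure D3:**
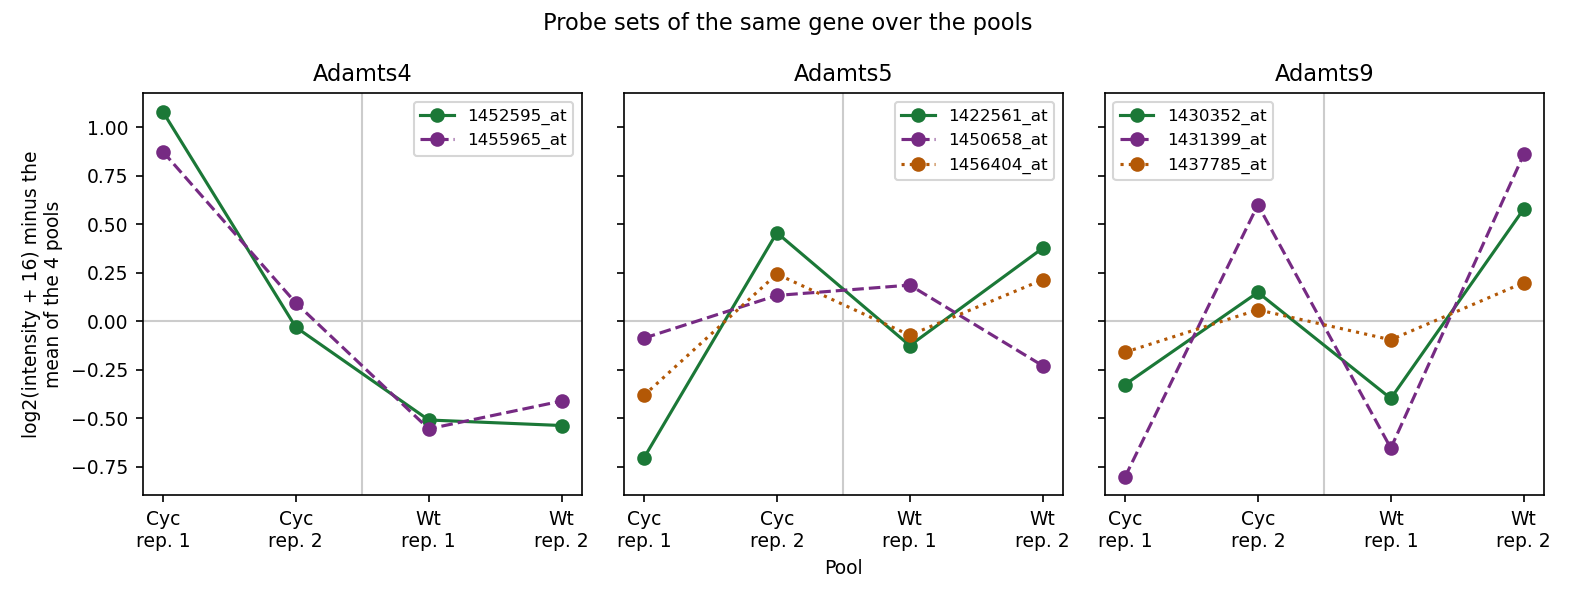
Patterns of the tested probe sets of Adamts4, Adamts5 and Adamts9 over the 4 pools, each as log2(intensity + 16) minus its own mean, with lines that join the values of 1 probe set. The Adamts4 probe sets run together with their peak in the Cyc pool of replicate 1, while 1431399_at of Adamts9 is low in both pools of replicate 1 and high in both pools of replicate 2.

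Adamts12 was higher in Cyc cells in both experiments but did not pass the thresholds. Its probe set 1439827_at had 103.6 and 144.5 in Cyc pools, against 87.0 and 70.8 in Wt pools, without overlap. The log2 fold change was 0.55 (standard error 0.27, 95% confidence interval from -0.16 to 1.27, limma), with 0.22 in experiment 1 and 0.89 in experiment 2. A change of 2-fold is within that interval.

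Adamts10 and Adamts15 had fold changes near 0. Adamts10 was read by 1427139_at at 284.8 and 289.8 in Cyc pools, against 315.4 and 292.2 in Wt pools. The Cyc pools lay just below the Wt pools, at a log2 fold change of -0.08 (95% confidence interval from -0.66 to 0.51, limma). Adamts15 was read by 1427056_at close to the limit of 50, at 62.5 and 50.1 in Cyc pools, against 60.2 and 49.1 in Wt pools. Its log2 fold change was 0.03 (95% confidence interval from -0.61 to 0.68, limma), although a change in a gene this dim would be understated.

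Of 11 other ADAMTS proteases, 8 had a probe set in the annotation used, and none of these genes could be tested. The other 3 were not analysed here. Adamts6, Adamts8, Adamts16, Adamts18, Adamts19 and Adamts20 lay below 50 in every pool. Adamts7, which also cleaves COMP, was read at 44.7 and 57.0 in Cyc pools, against 26.5 and 42.2 in Wt pools. Adamts3, a further procollagen N-proteinase, reached 51.5 in the Cyc pool of replicate 2 but stayed at 15.5 in the other Cyc pool and at 19.7 and 15.4 in Wt cells.

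ADAMTS-like proteins share the tail of the proteases but lack the catalytic domain. Their list was drawn up with earlier results of these arrays known, so its count is no independent evidence. Of 5 genes tested among 6, 1 was higher in Cyc cells (1 of 5 probe sets, against 0.735% of all). This was Adamtsl2, which interacts with fibrillin and latent TGF-β binding protein, with 494.1 and 728.3 in Cyc pools, against 166.7 and 59.2 in Wt pools. Its log2 fold change was 2.39, with 2.79-fold in experiment 1 and 9.90-fold in experiment 2, and it did not pass after correction (limma). The other 4 did not pass, and among these Adamtsl3 was at 138.1 and 181.0 in Cyc pools, against 322.3 and 164.4 in Wt pools. The median log2 fold change over the list was 0.27, each gene at its brightest probe set.

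Matrix proteins on which the enzymes act were followed in a pair of lists. They were drawn up with earlier results of these arrays known and hold genes that the study itself had called changed, so their counts are no independent evidence. No tested probe set of the series passed after correction in the fit without a block (limma). Among the proteoglycans, 2 of 5 tested genes were higher in Cyc cells, Bgn and Fmod, and none was lower (5 of 13 probe sets, against 0.735% of all). A gene is counted here if any of its probe sets passed. Bgn passed at 2 of its 3 probe sets but not at the brightest, 1416405_at, where the log2 fold change was 0.77. Fmod had 184.4 and 1103.5 in Cyc pools, against 69.5 and 50.3 in Wt pools at 1456084_x_at. This was 2.34-fold in experiment 1 and 16.9-fold in experiment 2. The median log2 fold change of the list, each gene at its brightest probe set, was 0.35, with -0.05 in experiment 1 and 0.84 in experiment 2. Vcan, the gene of versican and the classical substrate of Adamts1, Adamts4, Adamts5 and Adamts9, did not pass, with 489.9 and 1145.9 in Cyc pools, against 568.6 and 634.9 in Wt pools at 1427256_at. Acan, Bcan and Ncan, the genes of aggrecan and of brain proteoglycans, lay below 50 in every pool.

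Among procollagens and other matrix substrates, 5 of 11 tested genes were higher in Cyc cells and none was lower (7 of 23 probe sets higher, against 0.735% of all). These were Col1a1, Col1a2, Col5a2, Comp and Thbs1, and none of them passed after correction (limma). Col1a2 passed at 1 of its 3 probe sets and not at the brightest, 1450857_a_at, where the log2 fold change was 0.69. Col1a1, a substrate chain of Adamts2, had 456.1 and 905.5 in Cyc pools, against 321.3 and 242.5 in Wt pools at 1455494_at. At its other probe set, 1423669_at, it had 380.5 and 771.7 in Cyc pools, against 470.3 and 292.0 in Wt pools, with overlap and a log2 fold change of 0.53 that did not pass. Col3a1 was read at 11540.4 and 10795.5 in Cyc pools, against 10685.4 and 6355.8 in Wt pools at 1427883_a_at and did not pass. Comp, the substrate of Adamts12, had 387.9 and 495.3 in Cyc pools, against 58.0 and 65.4 in Wt pools. The median log2 fold change was 0.69, with 0.33 in experiment 1 and 1.16 in experiment 2.

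Of 8 tested genes for maturation, inhibition and uptake of the enzymes, none passed (0 higher and 0 lower over 16 probe sets in limma, with and without the block). At the brightest probe set of each gene their median was 0.10. Single genes ran from -0.30 for Timp3, the tissue inhibitor that blocks several ADAMTS enzymes, to 0.68 for Sdc4, a cell surface proteoglycan. At their other probe sets Timp3 lay between -0.16 and 0.02, and Sdc4 at 0.29. Furin, the protease that removes the propeptide of most family members, was read at 716.2 and 999.2 in Cyc pools, against 754.1 and 979.6 in Wt pools. Pofut2, which adds fucose to thrombospondin repeats, had 2062.9 and 2154.3 in Cyc pools, against 1658.7 and 1672.0 in Wt pools at 1437845_x_at, a log2 fold change of 0.34 (standard error 0.22). Its value was 0.30 at 1435056_x_at, but 0.02 at 1416573_at and -0.21 at 1448384_at, where the genotypes overlapped.

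**Figure D4:**
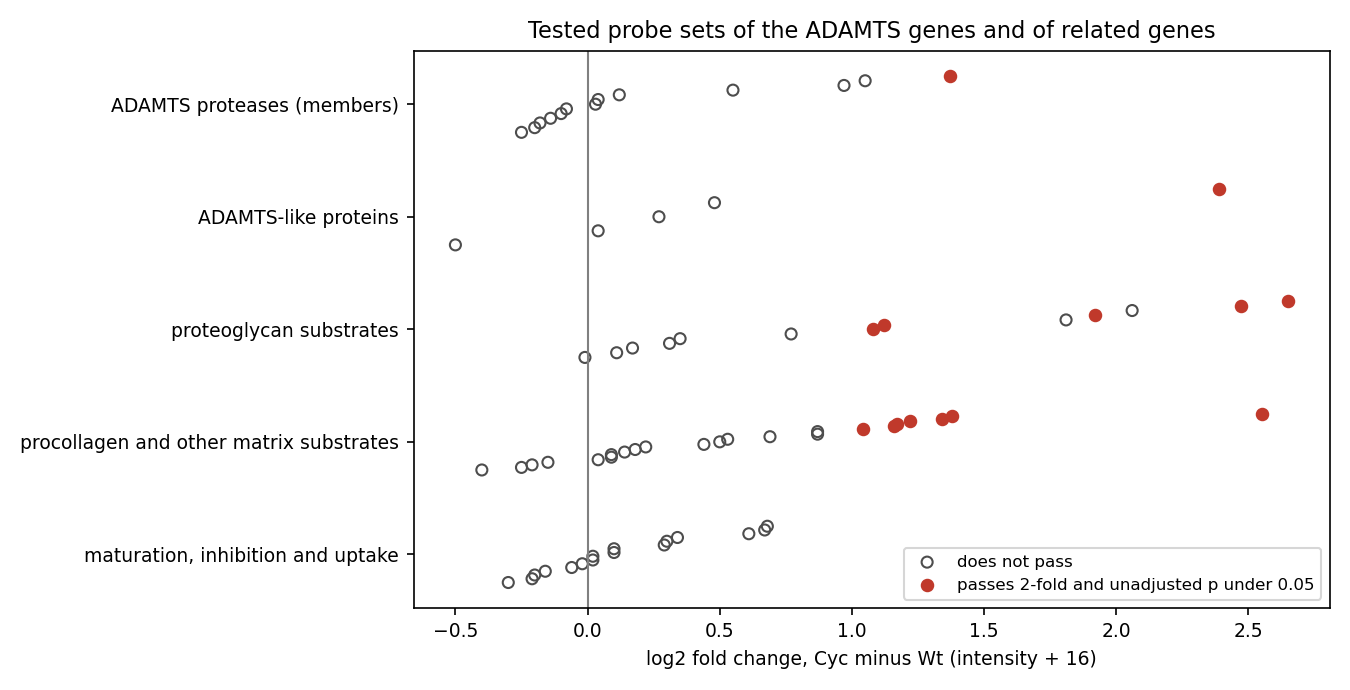
Fitted log2 fold change between Cyc and Wt cells for each tested probe set of the 8 ADAMTS genes and of 4 lists of related genes, with filled red points for those past 2-fold and an unadjusted p under 0.05. In the ADAMTS row 1 of 13 points is filled (Adamts2), against 5 of 13 for proteoglycans, 7 of 23 for procollagens and other matrix substrates and 0 of 16 for maturation, inhibition and uptake.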

How the data were processed

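Total RNA (250 ng) of 4 pools was amplified for Affymetrix Mouse 430 2.0 arrays. The deposited values are probe set intensities on a linear scale that the authors normalized in Resolver 7.2, and the background correction and summary method are not given in the sources used here. The 64 control probe sets were left out. Intensities below 0 were set to 0, 16 was added and log2 was taken. Probe sets at 50 or more on at least 2 arrays entered limma 3.58.1 under R 4.3.3 (2 residual and 2.68 prior degrees of freedom, Benjamini-Hochberg adjustment over 20680), without a block. The Resolver error model behind the study's thresholds was not run. The deviation from the group mean correlated at 0.447 between arrays of the same number, and the experiments were taken from the poly-A controls. Of 45037 probe sets, 34945 have 1 gene symbol, 932 several and 9160 none. The number of arrays limits the precision.

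The members and gene lists were chosen with earlier results of these data known. The genes named are all members, list genes past the thresholds or among the brightest, and the 3 genes most like a member past the thresholds. Some list genes the rule covers are given only as counts. Markers of smooth muscle, cardiomyocytes, leukocytes and mesothelium were also summed: in Cyc and then Wt pools, smooth muscle gave 11124 and 20815 against 9776 and 13827, cardiomyocytes 1712 and 1137 against 2476 and 1551, leukocytes 294 and 1024 against 302 and 265, and mesothelium 584 and 1794 against 1039 and 660. The alternatives were pseudocounts of 1 and 50, filters at 100 or none, quantile or median scaling between arrays, the replicate number as a block, a variance trend, unmoderated variances, leaving out each array and leaving out the probe set without an annotated symbol.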

Additional observations from a re-analysis of the deposited data

How the results depend on the processing

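Of 179 refits of single ADAMTS probe sets, 159 kept the direction and the side of the thresholds, 5 passed them in addition and 15 changed sign, all 15 where a pool was left out. Without single pools the log2 fold change ran from -0.01 to 0.25 for Adamts1, from -0.83 to 0.33, from -0.16 to 0.25 and from -0.45 to 0.17 for the Adamts5 probe sets 1422561_at, 1450658_at and 1456404_at, from -0.67 to 0.31, from -0.96 to 0.55 and from -0.25 to 0.05 for the Adamts9 probe sets 1430352_at, 1431399_at and 1437785_at, and from -0.09 to 0.16 for Adamts15. Adamts2 stayed between 1.20 and 1.54 and passed the thresholds in every refit. The count of higher ADAMTS probe sets was 1, and it was 2 with a pseudocount of 1, 2 with the replicate block, 2 with the block and quantile normalization together (an alternative added after seeing the data), 1 to 3 without single pools and 0 over probe sets with 1 gene symbol. The replicate block changed no other ADAMTS call. The additional ones were those of Adamts4, and the 3 were seen without the Cyc pool of replicate 2. The median over the ADAMTS probe sets ran from -0.07 to 0.25 when pools were left out, the lowest without Cyc replicate 2 and the highest without Wt replicate 2, while that of all tested probe sets was -0.19 and 0.08 in the same fits. Such fits set 1 experiment against both.

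Over all probe sets 152 were higher and 24 lower. The higher ones numbered 93 with a pseudocount of 50, 47 without moderated variances and 117 to 581 without single pools. The lower ones numbered 46 with a pseudocount of 1, 37 without a filter, 47 with the replicate block, 49 with the block and quantile normalization, 7 without moderated variances and 29 to 1050 without single pools. The highest count of higher ones, 581, was seen without the Cyc pool of replicate 1, and the 1050 lower ones without that of replicate 2. The cause was not tested. With 2 pools per genotype the standard errors of the ADAMTS log2 fold changes ran from 0.22 to 0.71, which limits the differences that could be detected.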
